A study of Saccharomyces cerevisiae with 12 samples.

Results

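The genes described here encode the budding yeast proteasome. They are the genes whose standard name is RPN, RPT, PRE or PUP followed by a number, plus SCL1, and they were found by name in both count tables. This gave 34 of the 7127 genes in each table. Of these, 14 encode the core particle and 18 the regulatory particle. RPN14 encodes an assembly chaperone of the regulatory particle, and RPN4 encodes the transcription factor of the set and is kept apart from the subunit genes. All 34 had enough fragments to be tested in every comparison.

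RNA-seq libraries came from BY4741 cells, an S288C laboratory strain, in mid-log growth in YPD (rich glucose medium) with no treatment. There were 4 groups of 3 libraries. H2AZ_4KR (genotype label H2AZ4KR) carries lysine-to-arginine changes in H2A.Z, the histone variant encoded by HTZ1, and is set against WT_H2AZ (label WT H2AZ). Ino80_K929R (label Ino80K929R) carries a lysine-to-arginine change in Ino80, the ATPase of a chromatin remodeller, and is set against WT_Ino80 (label WTIno80). The labels do not say whether the alleles sit at their own locus or on a plasmid, nor whether replicates were separate cultures, so p-values measure the spread between these samples, which may be technical. The mutated genes also differed in level: HTZ1 was 4.45-fold higher in H2AZ_4KR than in WT_H2AZ, and INO80 was 7.74-fold higher in Ino80_K929R than in WT_Ino80. LEU2, a leucine synthesis gene used as a strain marker, was listed at 0 in all 3 WT_H2AZ libraries and was expressed in the 9 others, so WT_H2AZ differs from its mutant in this marker as well.

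The proteasome degrades proteins tagged with ubiquitin. Its core particle is a barrel of stacked rings, with outer rings of alpha subunits that gate the entrance and inner rings of beta subunits, some of which cut peptide bonds. The regulatory particle caps the barrel. Its base holds a ring of RPT ATPases that unfold substrates, together with RPN scaffold and ubiquitin receptor subunits, and its lid removes ubiquitin. In yeast the subunit genes are activated together by Rpn4, which binds a short element called PACE in their promoters. Rpn4 protein is itself a short-lived substrate of the proteasome, so the RPN4 messenger RNA measured here is not the level of the Rpn4 protein.

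The PACE letters GGTGGCAAA were searched on both strands in the 500 bases before the start codon, in the R64 reference genome (the sequence of the sacCer3 build). They were found before 27 of the 33 members other than RPN4, or 81.8%, against 99 of 6000 genes searched, or 1.65%. All 6 RPT genes had the element, as did 12 of the 14 core particle genes and 15 of the 18 regulatory particle genes. The first base lay 84 to 183 bases before the start codon (median 120), and 19 of the 27 elements read on the strand of the gene and 8 on the other. No member had 2. The windows below belong to members whose values are described later, and each is written 5′ to 3′ on the strand of the gene with PACE in capitals.
PUP2: aaccaagaccGGTGGCAAAagagtaacct
PRE9: ttaccctgcaGGTGGCAAAaaatttatag
PRE2: acagcaaaagGGTGGCAAAacgaagaata
PUP3: tggcactgccGGTGGCAAAaaagtgcaaa
RPT6: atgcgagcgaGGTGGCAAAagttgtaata
RPN1: tgtgttttacGGTGGCAAAaggcgagcac
RPN3: acgaaaaacaTTTGCCACCcaagaaagag
PRE4: tggtttagaaTTTGCCACCttaaatacgt
The window of PUP2 is chrVII:999226-999254 on the minus strand, that of PRE9 is chrVII:761223-761251 on the plus strand, and that of PRE2 is chrXVI:732184-732212 on the plus strand. PUP3 has chrV:349511-349539 on the minus strand, RPT6 has chrVII:411352-411380 on the minus strand and RPN1 has chrVIII:164838-164866 on the minus strand. RPN3 has chrV:196843-196871 on the plus strand and PRE4 has chrVI:249959-249987 on the minus strand. In RPN3 and PRE4 the capitals are PACE read on the other strand.

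The 6 members without the full element were PRE5, PUP1, RPN8, RPN10, RPN13 and RPN14. A shorter form, GTGGCAA on either strand, which lies inside PACE, was present in 31 of the 33 members (93.9%) and in 7.58% of all genes searched. PRE5, PUP1, RPN8 and RPN10 had this short form alone. The windows of PRE5 and RPN10, which had the lowest log2 fold changes of their particles in Ino80_K929R, have the short form in capitals. That of PRE5 is chrXIII:901553-901579 on the plus strand and that of RPN10 is chrVIII:498888-498914 on the plus strand, and in RPN10 the form reads on the other strand.
PRE5: ctattatagaGTGGCAAaattaaaaat
RPN10: gctgatgttgTTGCCACttcttgttta

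The RPN4 window held no PACE in either form. It held 2 copies of TCCGNGGA, the element of Pdr1 and Pdr3, regulators of drug resistance, and this element was present in 2.92% of all genes searched. It also held 1 copy of the Yap1 element (TTACTAA or TTAGTAA, present in 11.8%), named for an oxidative stress regulator, and 2 copies of GAANNTTC, part of the heat shock element (present in 19.2%). All were searched on both strands. The windows of RPN4 have both copies of the Pdr1 and Pdr3 element and the Yap1 element in capitals. They are chrIV:417133-417160, chrIV:417090-417117 and chrIV:417066-417092, all on the minus strand.
RPN4 first Pdr1 and Pdr3 element: aataacaagtTCCGTGGAactcaaagaa
RPN4 second Pdr1 and Pdr3 element: tacgaaccttTCCACGGAtaatcacgtg
RPN4 Yap1 element: gtgatcgctaTTACTAAtagccgttta
A match to these letters is a description of the sequence and does not show that a factor binds there.

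**Figure D1:**
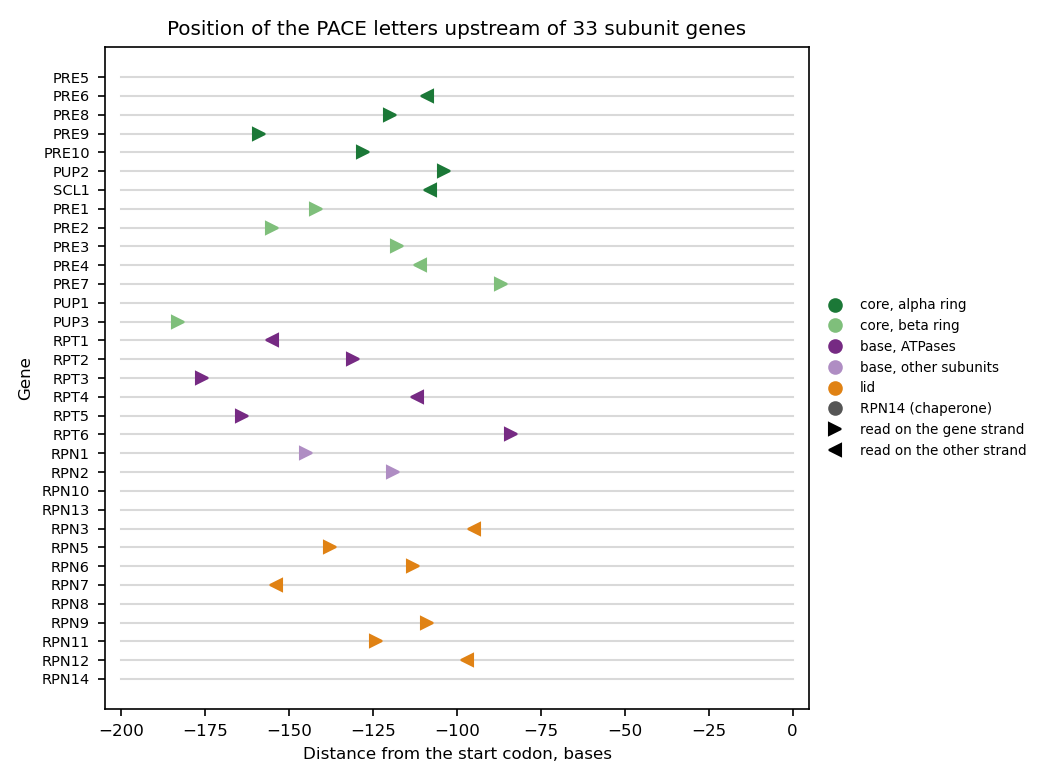
Position of the PACE letters before the start codon (x axis, bases) for the 33 members other than RPN4 (one line each, coloured by particle). Triangles point right where the element reads on the strand of the gene and left where it reads on the other; the 27 elements lie 84 to 183 bases before the start codon, and 6 lines are empty.

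The 34 genes lie on 13 chromosomes. The nearest members are RPT4 and RPN8, 2206 bases apart on chromosome XV, and PRE4 and RPN12, 2638 bases apart on chromosome VI. PRE3 has 2 exons, and each of the others has 1. RPT1 overlaps another gene model, YKL145W-A, by 93 bases. Counting ignored strand and dropped fragments over several genes, so the RPT1 counts exclude fragments from the shared bases.

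Libraries held 17253140 to 20164258 counted fragments. CPM are the fragments of a gene per 1000000 counted fragments of its library, scaled between libraries with edgeR's TMM factors (0.876 to 1.10). Replicates of every group differed by more than counting noise. WT_Ino80 replicate 1 stood apart in gene length: its log2 CPM relative to the mean of the 12 libraries fell by 0.27 for each doubling of gene length, while the slopes of the other 11 libraries lay between -0.04 and 0.09. All 14 core particle genes are short (597 to 867 bases of gene model), whereas regulatory particle genes run from 471 to 2982 bases (median 1297.5). Fold changes and list medians of proteasome genes against WT_Ino80 are followed by their values without this library.

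Per kilobase of gene model, core particle transcripts were more abundant than regulatory particle transcripts in each of the 12 libraries. The median core particle gene had 296, 350.2 and 292 CPM per kb in the 3 H2AZ_4KR libraries and 276, 289 and 292 in the WT_H2AZ libraries. It had 332, 332 and 252 CPM per kb in the Ino80_K929R libraries and 461, 296 and 312 in the WT_Ino80 libraries. The highest of the 12 values is WT_Ino80 replicate 1, and each mutant overlaps its wild type, while all 3 WT_Ino80 libraries lie above the WT_H2AZ libraries.

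The median regulatory particle gene had 204, 234 and 201 CPM per kb in the H2AZ_4KR libraries and 207, 199 and 202 in the WT_H2AZ libraries. It had 230.3, 232 and 193 in the Ino80_K929R libraries and 241, 193 and 206 in the WT_Ino80 libraries. The groups overlapped here too. The ratio of the core median to the regulatory median was 1.47 ± 0.0261 in H2AZ_4KR, 1.41 ± 0.0681 in WT_H2AZ, 1.39 ± 0.0760 in Ino80_K929R and 1.65 ± 0.224 in WT_Ino80 (SD, n = 3 each). WT_Ino80 replicate 1 had the highest ratio of the 12 libraries, 1.91, and the other 11 ranged from 1.30 to 1.53. Within H2AZ_4KR and WT_H2AZ the ratios overlapped, while the Ino80_K929R ratios (1.30 to 1.44) all lay below those of WT_Ino80 (1.51 to 1.91). Together the 33 genes without RPN4 took 0.798% ± 0.0919 of counted fragments in H2AZ_4KR, 0.824% ± 0.0325 in WT_H2AZ, 0.879% ± 0.0736 in Ino80_K929R and 0.871% ± 0.0337 in WT_Ino80 (SD, n = 3 each).

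**Figure D2:**
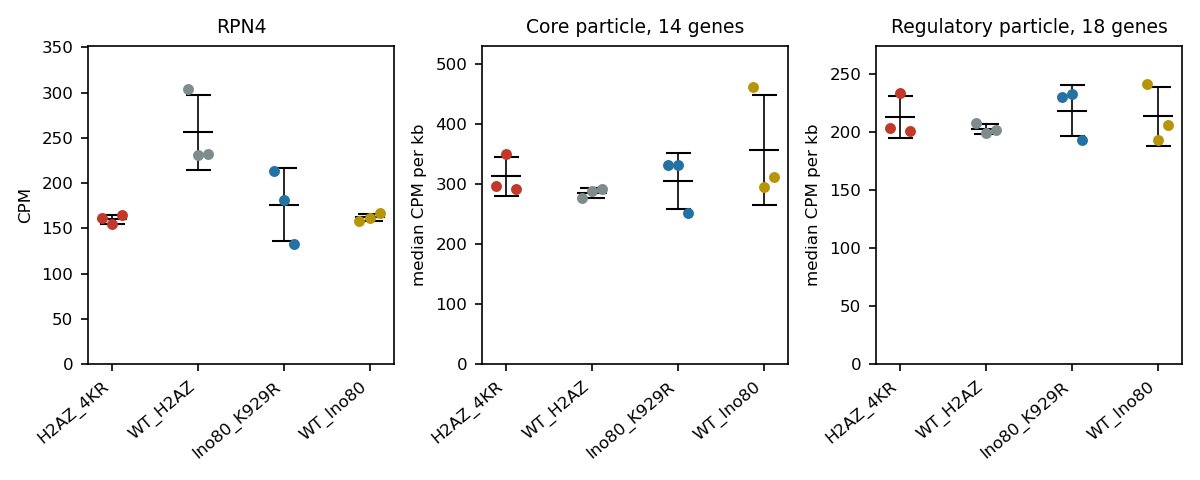
RPN4 (CPM) and the median core and regulatory particle gene (CPM per kb) in each of the 12 libraries; points are libraries, bars are the mean and SD of 3 libraries, and y axes start at 0. RPN4 is at 231 to 304 CPM in the 3 WT_H2AZ libraries and at 133 to 213 CPM in the 9 others, and the highest core particle median is WT_Ino80 replicate 1.

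Within the core particle the mean level over the 12 libraries was highest for PUP3, an inner ring subunit, at 439 CPM per kb, followed by SCL1 at 387 and PRE9 at 384, both outer ring subunits. It was lowest for PUP1, which carries the trypsin-like activity, at 254 CPM per kb, and for PRE4, at 283. In the regulatory particle the level was highest for the ATPase subunit RPT6, at 264 CPM per kb, and for the ubiquitin receptor RPN13, at 260.1. It was lowest for RPN1, a scaffold of the base, at 162 CPM per kb. The lowest of all was RPN14, the chaperone, at 33.5 CPM per kb, below every subunit gene. RPN4 stood at 118 CPM per kb, also below every subunit gene.

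PUP3 had 431 ± 64.6 CPM per kb in H2AZ_4KR and 399.6 ± 32.4 in WT_H2AZ, and 409 ± 83.1 in Ino80_K929R and 518 ± 186 in WT_Ino80 (SD, n = 3 each). PUP1 had 250.3 ± 39.4 CPM per kb in H2AZ_4KR and 227 ± 8.14 in WT_H2AZ, and 244 ± 27.7 in Ino80_K929R and 295 ± 80.8 in WT_Ino80 (SD, n = 3 each). Neither difference between a mutant and its wild type exceeded the spread of the libraries for these genes. RPT6 had 259.8 ± 20.2 CPM per kb in H2AZ_4KR and 257 ± 5.96 in WT_H2AZ, and 258 ± 47.9 in Ino80_K929R and 281 ± 78.3 in WT_Ino80. RPN1 had 155 ± 18.8 CPM per kb in H2AZ_4KR and 161 ± 12.4 in WT_H2AZ, and 182 ± 21.4 in Ino80_K929R and 152 ± 32.5 in WT_Ino80. The order of the genes by level was similar in a mutant and its wild type, except that it was less alike for the regulatory genes of Ino80_K929R. The WT_Ino80 means used for this include replicate 1. Spearman's rho over the 14 core genes was 0.84 for H2AZ_4KR with WT_H2AZ and 0.82 for Ino80_K929R with WT_Ino80, and over the 18 regulatory genes it was 0.90 and 0.61. These correlations are across genes, which share libraries and gene lengths, and are descriptions only.

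**Figure D3:**
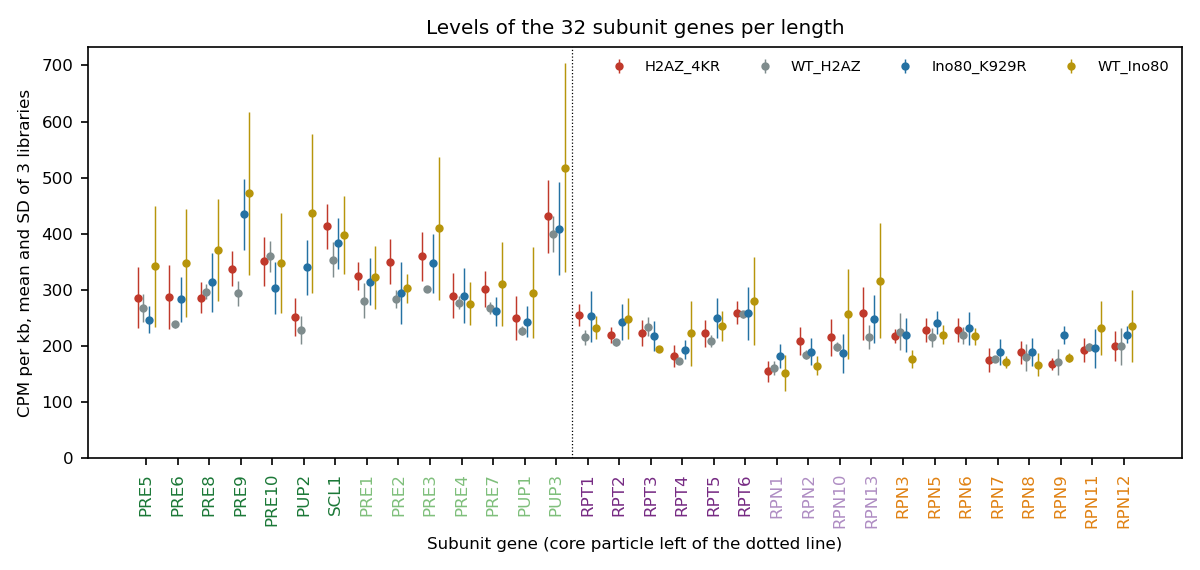
Mean level and SD of 3 libraries (y axis, CPM per kb, from 0) of the 32 subunit genes in the 4 groups; gene names are coloured by ring, base or lid, with the core particle left of the dotted line. The core genes run from 227 (PUP1 in WT_H2AZ) to 518 (PUP3 in WT_Ino80), and the widest bar is that of PUP3 in WT_Ino80.

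The first comparison asks which proteasome genes changed in H2AZ_4KR relative to its wild type. RPN4, the activator, fell, and none of the 33 other members changed. A change here means a Benjamini-Hochberg adjusted p under 0.05 over all genes tested with edgeR's quasi-likelihood test, together with a fold over 1.5, the limits that the series states. Thus 1 of 34 members was called, against 12.1% of the 6106 genes tested (739). The groups did not overlap for 7 of 34 members and for 40.6% of all genes tested.

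RPN4 had 161, 155 and 165 CPM in the H2AZ_4KR libraries, against 304, 231 and 233 CPM in the WT_H2AZ libraries. Every H2AZ_4KR library was below every WT_H2AZ library, and the mutant libraries lay close together while WT_H2AZ replicate 1 was the highest. The WT_Ino80 and Ino80_K929R libraries lay at 133 to 213 CPM, so WT_H2AZ, with LEU2 at 0, was the group that stood apart. Whether the marker bears on RPN4 was not tested. In bulk libraries a fall in every cell and a fall in some of the cells cannot be told apart. Between H2AZ_4KR and WT_H2AZ the log2 fold change of RPN4 was -0.67 (SE 0.119, 95% interval -0.93 to -0.41, fold 0.628, adjusted p = 0.00353 by edgeR). Without WT_H2AZ replicate 1 it was -0.54 (adjusted p = 0.00896 by edgeR), which misses the fold limit. With an offset for each library's trend with gene length, chosen after seeing the data, it was -0.58 (adjusted p = 0.00461 by edgeR), which also misses the fold limit and leaves no member called.

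Most core particle genes had log2 fold changes above 0 in H2AZ_4KR, and none of them passed the test. Of the 14 log2 fold changes 12 were above 0, with a median of 0.16 against -0.01 over all genes tested. Over all genes tested under 1000 bases the median was 0.05. All 7 beta subunit genes were above 0 (median 0.18), as were 5 of the 7 alpha subunit genes (median 0.15). Libraries scaled by total counts alone gave a core median of 0.02 with the median of all genes at -0.15. A change of scaling shifts all genes nearly alike, so it cannot test where the core stands relative to them. Much of the core median rested on H2AZ_4KR replicate 2, the library with the highest core level of its group. Without it the core median was 0.055, with 5 of the 7 beta and 4 of the 7 alpha subunit genes above 0.

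PRE2, the beta subunit with the chymotrypsin-like activity, was the highest in the core. It had 275, 341 and 292 CPM in the H2AZ_4KR libraries, against 229.8, 259 and 247 CPM in the WT_H2AZ libraries, and the groups did not overlap. Its log2 fold change was 0.31 (SE 0.114, 95% interval 0.06 to 0.56, adjusted p = 0.076 by edgeR). With the gene length offset PRE2 was at 0.33 (adjusted p = 0.0408 by edgeR) and missed only the fold limit. The same held for RPT1, a base ATPase, at 0.33 with the offset (adjusted p = 0.0388 by edgeR). PRE8, an alpha subunit, was the lowest in the core, with 202, 239 and 206 CPM in the H2AZ_4KR libraries against 226, 212 and 231 CPM in the WT_H2AZ libraries. These groups overlapped, and the log2 fold change was -0.05 (SE 0.103, 95% interval -0.27 to 0.18).

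The other core genes whose groups did not overlap were PRE1, PRE3 and PRE7, all beta subunits and all higher in H2AZ_4KR. The margin was narrow for PRE1 and PRE7. PRE1 had 178.9 CPM in both its lowest H2AZ_4KR and its highest WT_H2AZ library, a tie at this rounding. For PRE7 these values were 204.3 and 202.9 CPM. PRE3, which carries the caspase-like activity, had 204, 260.1 and 236 CPM in the H2AZ_4KR libraries against 196, 195 and 196 CPM in the WT_H2AZ libraries. Its log2 fold change was 0.26 (SE 0.109, adjusted p = 0.116 by edgeR). These 3 genes were named after their values were seen.

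The regulatory particle genes stood nearer to 0. Their median log2 fold change was 0.07, with 12 of 18 above 0, and total counts turned it to -0.07, a shift that all genes shared. Without H2AZ_4KR replicate 2 the regulatory median was -0.02. With the gene length offset it was 0.125 (17 of 18 above 0), beside 0.166 for the core and 0.032 for all genes tested. The base ATPase genes had a median of 0.09 (5 of 6 above 0) and the 8 lid genes a median of -0.001 (4 above 0), while the 4 other base genes had a median of 0.15. RPN13, a ubiquitin receptor of the base, was the highest, with 98.9, 144 and 122 CPM in the H2AZ_4KR libraries against 94.9, 114 and 97.9 CPM in the WT_H2AZ libraries. These overlapped, and the log2 fold change was 0.26 (SE 0.142, 95% interval -0.06 to 0.57). Without H2AZ_4KR replicate 2 it was 0.113.

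RPT3, a base ATPase, was the lowest, with 301, 307 and 252 CPM in the H2AZ_4KR libraries against 319.7, 277 and 309 CPM in the WT_H2AZ libraries. Its log2 fold change was -0.07 (SE 0.111, 95% interval -0.32 to 0.18). RPN14 had 40.5, 43.3 and 44.6 CPM in the H2AZ_4KR libraries against 45.6, 53.9 and 44.8 CPM in the WT_H2AZ libraries. The groups did not overlap, by a narrow margin, and the log2 fold change was -0.17 (SE 0.114, adjusted p = 0.315 by edgeR). At an unadjusted p under 0.05 there were 4 of 34 members, RPN4, PRE2, PRE3 and RPT1, which is 11.8%, against 36.5% of all genes tested (2226).

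**Figure D4:**
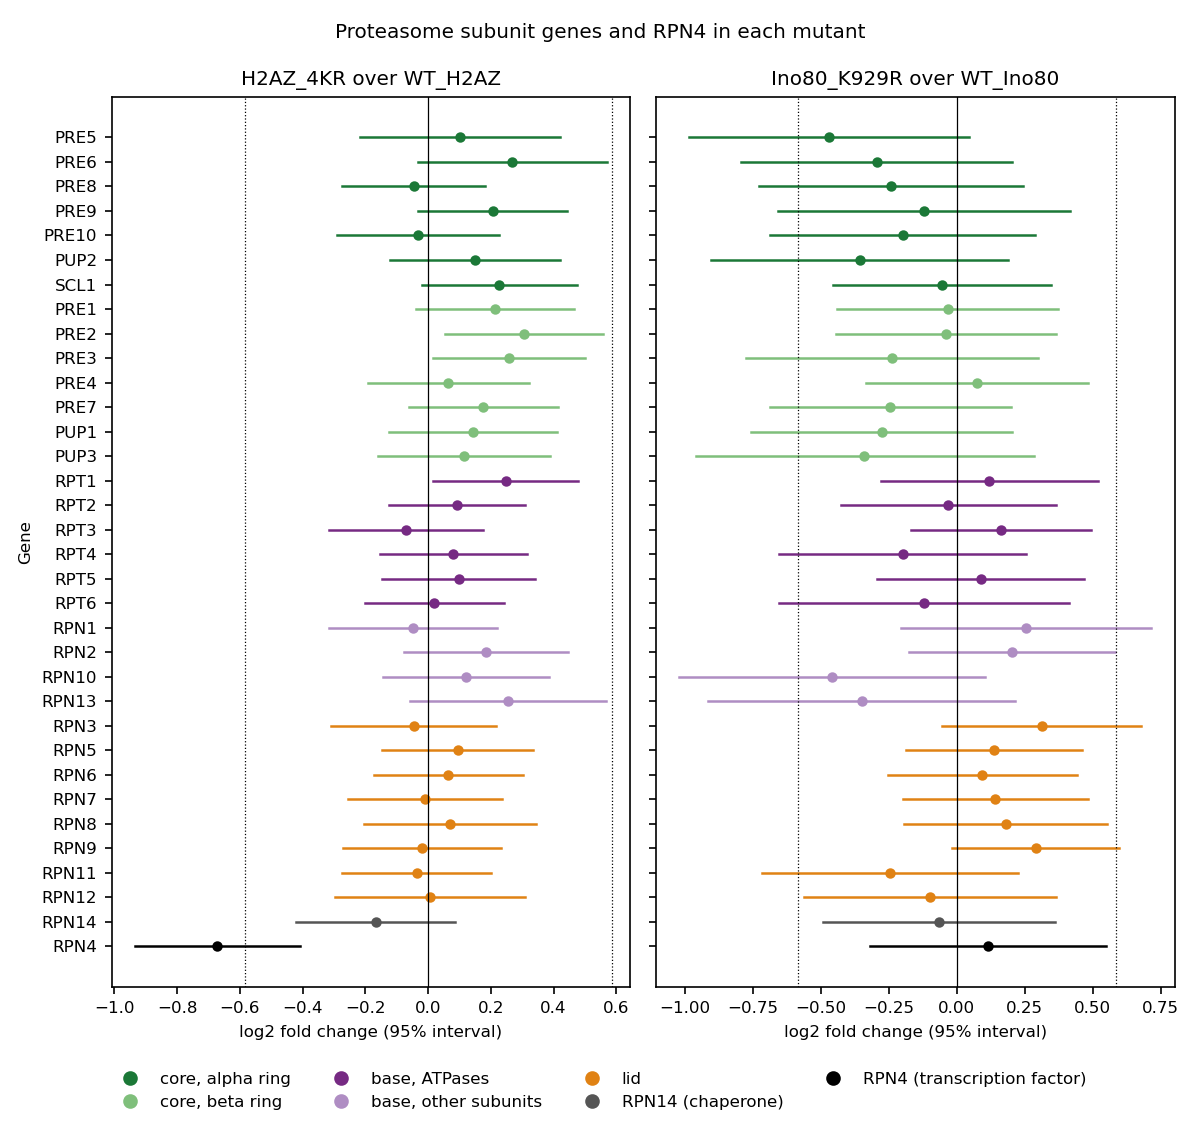
Log2 fold change with its 95% interval (x axes) for the 34 genes, H2AZ_4KR over WT_H2AZ on the left and Ino80_K929R over WT_Ino80 on the right; dotted lines mark a fold of 1.5 and colours mark ring, base or lid. RPN4 at -0.67 is the one gene past the limits, and on the right the core genes lie left of most lid genes.

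The second comparison asks the same of Ino80_K929R. None of the 34 members changed. In this comparison 0.0162% of the 6161 genes tested were called, which is 1 gene, INO80 itself. At an unadjusted p under 0.05 edgeR gave 0 members (380 of all genes tested), and DESeq2 with both limits also called 0 members. The groups did not overlap for 1 of 34 members and for 15.9% of all genes tested.

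That member was RPN9, a lid subunit, with 270.4, 271 and 237 CPM in the Ino80_K929R libraries against 216, 219 and 201 CPM in the WT_Ino80 libraries. All 3 mutant libraries were higher. Its log2 fold change was 0.29 (SE 0.133, 95% interval -0.02 to 0.60, adjusted p = 0.722 by edgeR), and 0.31 without WT_Ino80 replicate 1. It was named after its values were seen.

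The core and regulatory particles leaned in opposite directions in Ino80_K929R. The median log2 fold change was -0.24 over the 14 core genes, 13 of them below 0, and 0.11 over the 18 regulatory genes, 11 of them above 0, with -0.01 over all genes tested. Without WT_Ino80 replicate 1 the core median was -0.001, with 7 genes above and 7 below 0, and the regulatory median was 0.15. The lean of the core particle rested on that library. With the gene length offset the medians were -0.10 and 0.05.

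PRE5, an alpha subunit, was the lowest of the core. It had 189, 177 and 156 CPM in the Ino80_K929R libraries, against 328, 188 and 207 CPM in the WT_Ino80 libraries. WT_Ino80 replicate 1 was far above the other 5, which overlap. The log2 fold change was -0.47 (SE 0.222, 95% interval -0.98 to 0.04, adjusted p = 0.722 by edgeR), and without that library it was -0.18.

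PRE4, a beta subunit, was the highest of the core, with 251, 259 and 188 CPM in the Ino80_K929R libraries against 255, 197 and 209 CPM in the WT_Ino80 libraries. Its log2 fold change was 0.07 (SE 0.176, 95% interval -0.34 to 0.48), and 0.19 without WT_Ino80 replicate 1. The intervals of the 14 core genes all reached 0, and a fold of 1.5 lay inside the interval for PRE5 and for several others on the lower side.

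In the regulatory particle RPN10, a ubiquitin receptor with one of the shortest genes of the particle (807 bases), was the lowest. It had 173, 162 and 119 CPM in the Ino80_K929R libraries, against 282, 171 and 170.1 CPM in the WT_Ino80 libraries. The groups overlapped, since Ino80_K929R replicate 1 lay above 2 of the wild-type libraries. RPN10 had a log2 fold change of -0.46 (SE 0.243, 95% interval -1.02 to 0.10), and without WT_Ino80 replicate 1 it was -0.17.

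RPN3, a lid subunit with a gene of 1572 bases, was the highest, with 356, 388 and 295 CPM in the Ino80_K929R libraries against 261, 267 and 308 CPM in the WT_Ino80 libraries. Its log2 fold change was 0.31 (SE 0.158, 95% interval -0.05 to 0.68, adjusted p = 0.722 by edgeR), and without WT_Ino80 replicate 1 it was 0.27. By class, the lid had a median of 0.14 (6 of 8 above 0), the base ATPases 0.03 (3 of 6) and the other base subunits -0.07 (2 of 4). Leaving out WT_Ino80 replicate 1 gave 0.20 (7 of 8), 0.14 (6 of 6) and 0.02 (2 of 4).

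RPN4 had 213, 182 and 133 CPM in the Ino80_K929R libraries, against 158, 162 and 167 CPM in the WT_Ino80 libraries. The mutant libraries spread above and below the tight wild-type values. The log2 fold change was 0.12 (SE 0.188, 95% interval -0.32 to 0.55, adjusted p = 0.871 by edgeR), and 0.10 without WT_Ino80 replicate 1. RPN14 had 45.1, 36.9 and 31.1 CPM in the Ino80_K929R libraries against 41.8, 37.6 and 38.9 CPM in the WT_Ino80 libraries, and a log2 fold change of -0.07 (SE 0.184), or -0.02 without WT_Ino80 replicate 1.

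Gene length ordered the members in this comparison. Over the 32 subunit genes Spearman's rho between length and log2 fold change was 0.73, and over all 6161 genes tested it was 0.55. Without WT_Ino80 replicate 1 the values were 0.54 and 0.24. The 18 members under 1000 bases (RPN4 left out) had a median of -0.24 and the 15 longer ones 0.14, beside -0.20 for the 2647 short and 0.11 for the 3514 long genes among all tested. The medians of the short and long members were -0.02 and 0.15 without WT_Ino80 replicate 1. Those of all short and long genes tested were then -0.06 and 0.04. In H2AZ_4KR the rho was -0.46 over the 33 members other than RPN4 and -0.13 over all genes tested. These are correlations across genes, which share the libraries, and carry no p.

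**Figure D5:**
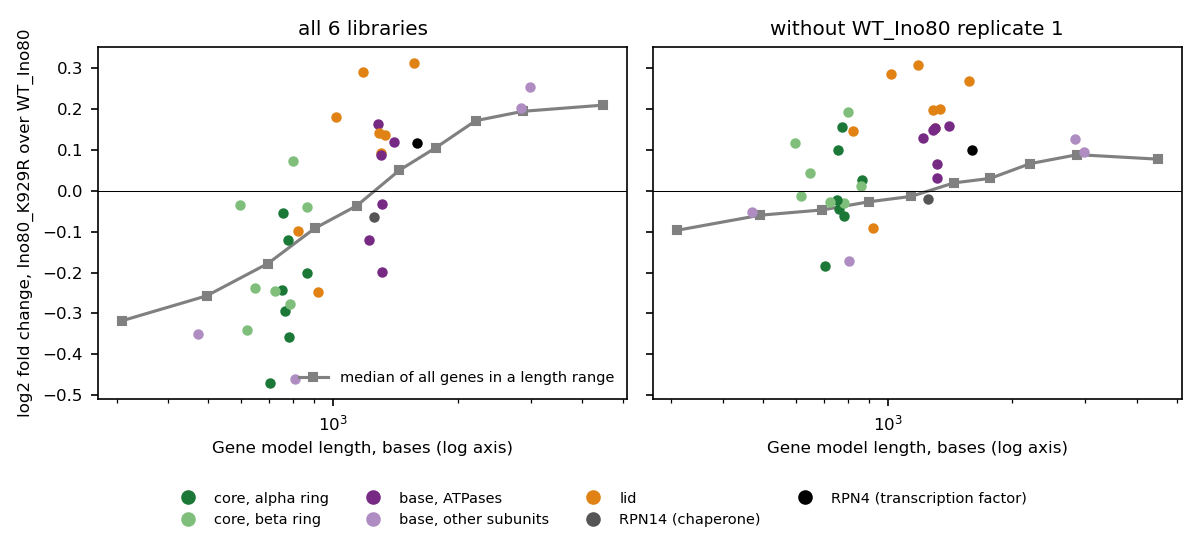
Gene model length (x axes, bases, log scale) against the log2 fold change of Ino80_K929R over WT_Ino80 for the 34 genes, with all 6 libraries (left) and without WT_Ino80 replicate 1 (right); grey squares are medians of all genes tested in length ranges. On the left the grey line climbs from -0.32 for the shortest range to 0.21 for the longest; on the right it runs from -0.10 to 0.08 and the core genes lie on both sides of 0.

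The third comparison asks whether the 2 mutants moved proteasome genes differently, as the effect in H2AZ_4KR minus the effect in Ino80_K929R in a fit of all 12 libraries. No member was called, against 4.25% of the 6235 genes tested (265). At an unadjusted p under 0.05 there was 1 member, RPN4 (2.94% of the members), against 24.2% of all genes tested (1508). The difference of RPN4 was -0.79 (SE 0.231, 95% interval -1.29 to -0.29, adjusted p = 0.0654 by edgeR), and -0.78 without WT_Ino80 replicate 1. It passed both limits with DESeq2 (-0.79, adjusted p = 0.0215 by DESeq2) and without Ino80_K929R replicate 3 (-0.96, adjusted p = 0.0163 by edgeR).

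The core particle genes had a median difference of 0.38, with 13 of 14 above 0, and the regulatory particle genes a median of -0.01, with 9 of 18 above 0. The smallest adjusted p among subunit genes was 0.234. Spearman's rho between length and the difference was -0.75 over the 33 members other than RPN4 and -0.39 over all genes tested. All genes tested under 1000 bases had a median difference of 0.25, and the longer ones -0.15. Without WT_Ino80 replicate 1 the medians were 0.14 for the core and -0.10 for the regulatory particle. In that fit all genes tested under 1000 bases had a median of 0.12 and the longer ones -0.07. RPN13 had the highest difference, 0.60, and RPN3 the lowest of the subunit genes, -0.37, and each missed the test. Without that library RPN13 was at 0.30 and RPN3 at -0.32.

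The fourth comparison sets the 2 wild types against each other, WT_Ino80 over WT_H2AZ, in the fit of all 12 libraries. The labels give both the same strain, but the tables were deposited separately and the wild types differ in LEU2, so strain and table cannot be told apart here. Of 34 members 3 were called, against 32.7% of the 6235 genes tested (2036): PUP2 and PRE9, both alpha subunits of the core, were higher in WT_Ino80, and RPN4 was lower. The groups did not overlap for 13 of 34 members and for 53.9% of all genes tested.

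PUP2 had 469, 266 and 291 CPM in the WT_Ino80 libraries, against 196, 158 and 183 CPM in the WT_H2AZ libraries. All WT_Ino80 libraries were higher, replicate 1 most of all. PUP2 had a log2 fold change of 0.93 (SE 0.205, 95% interval 0.49 to 1.38, adjusted p = 0.00352 by edgeR), and without WT_Ino80 replicate 1 it was 0.62 (adjusted p = 0.00722 by edgeR), still past both limits. PUP2 was also higher in Ino80_K929R (296, 280.5 and 224 CPM) than in H2AZ_4KR (178, 228 and 188 CPM), where the groups overlapped slightly.

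PRE9, which encodes the alpha subunit that yeast can live without, had 494, 279 and 327 CPM in the WT_Ino80 libraries, against 223, 214 and 247 CPM in the WT_H2AZ libraries. The groups did not overlap. The log2 fold change was 0.68 (SE 0.193, 95% interval 0.27 to 1.10, adjusted p = 0.0132 by edgeR). Without WT_Ino80 replicate 1 it was 0.40 (adjusted p = 0.0423 by edgeR), which misses the fold limit.

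RPN4 had 158, 162 and 167 CPM in the WT_Ino80 libraries, against 304, 231 and 233 CPM in the WT_H2AZ libraries. The log2 fold change was -0.66 (SE 0.164, 95% interval -1.01 to -0.30, adjusted p = 0.00706 by edgeR), and without WT_H2AZ replicate 1 it was -0.52 (adjusted p = 0.0376 by edgeR), under the fold limit. It was -0.65 without WT_Ino80 replicate 1. Since this contrast and that of H2AZ_4KR share the WT_H2AZ libraries, their fold changes are not independent. Over the 4 groups RPN4 averaged 160.3 ± 5.10 CPM in H2AZ_4KR, 256 ± 41.8 in WT_H2AZ, 176 ± 40.4 in Ino80_K929R and 162 ± 4.19 in WT_Ino80 (SD, n = 3 each). In the order H2AZ_4KR, WT_Ino80, Ino80_K929R, WT_H2AZ the first 3 groups overlap one another and only WT_H2AZ stands apart.

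The remaining members did not pass. PRE6, an alpha subunit, missed only the fold limit in the wild types (0.54, SE 0.194, adjusted p = 0.0403 by edgeR), and without WT_Ino80 replicate 1 it was 0.27 (adjusted p = 0.192 by edgeR). The median log2 fold change was 0.34 over the core genes and 0.09 over the regulatory genes, beside 0.03 over all genes tested, and 0.04 and 0.01 without WT_Ino80 replicate 1. With all libraries, all genes tested under 1000 bases had a median of 0.27 and the longer ones -0.12. These became 0.10 and -0.06 without WT_Ino80 replicate 1. Spearman's rho with length was -0.65 over the 33 members other than RPN4 and -0.28 over all genes tested. RPN13 had the highest value of the regulatory genes, 0.55, and RPN3 the lowest, -0.35. When WT_Ino80 replicate 1 was left out RPN13 was at 0.23 (adjusted p = 0.312 by edgeR) and RPN3 at -0.32. RPN13 passed both limits without WT_Ino80 replicate 2 (0.69, adjusted p = 0.0276 by edgeR) and without replicate 3 (0.66, adjusted p = 0.0428 by edgeR).

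Members with and without PACE were set side by side as a description. In H2AZ_4KR the 27 genes with the element had a median log2 fold change of 0.09 and the 6 without it 0.11. In Ino80_K929R the medians were -0.04 with and -0.31 without, and in WT_Ino80 over WT_H2AZ 0.17 with and 0.36 without. Leaving out WT_Ino80 replicate 1 brought them to 0.12 with and -0.04 without in Ino80_K929R, where the gap narrowed. In the wild types it brought them to 0.03 with and 0.06 without, where the gap nearly closed. The ranges of both sets overlapped in each comparison. Of the 6 genes without PACE 4 are under 1000 bases, beside 18 of all 33 members. PACE was also present before 72 genes that are no members, of which 11 are the divergent neighbours of a member. Of those tested in H2AZ_4KR, 4 of 71 rose and 4 fell (11.3%, beside 12.1% of all genes). In Ino80_K929R 0 of 70 were called. In the wild types 8 of 71 were higher and 15 lower (32.4%, beside 32.7%).

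The genes that act with the proteasome were described from lists of assembly factors, associated proteins, regulators of RPN4 and ubiquitin genes. In H2AZ_4KR none of 9 assembly factors changed (median 0.02), the lowest being TMA17 at -0.52 and the highest POC4 at 0.38. Of 12 associated proteins 1 fell, SPG5, a proteasome factor of stationary phase, at -0.63 (SE 0.124, adjusted p = 0.00564 by edgeR). It had 71.7, 86.3 and 93.8 CPM in the H2AZ_4KR libraries against 126, 144 and 121 CPM in the WT_H2AZ libraries. SEM1, a small lid component whose name lies outside the rule for members, was the highest of that list at 0.46 (adjusted p = 0.0214 by edgeR) and missed the fold limit.

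Of 7 regulators of RPN4 none changed in H2AZ_4KR, from UBR2, a ubiquitin ligase that targets Rpn4, at -0.19 to RAD6, a ubiquitin-conjugating enzyme, at 0.20. Of 29 ubiquitin genes 3 rose and 2 fell (17.2%, beside 12.1% of all genes). RPS31 (0.68, adjusted p = 0.011 by edgeR) and RPL40A (0.59, adjusted p = 0.0209 by edgeR), which encode ubiquitin fused to a ribosomal protein, and UBC4 (0.64, adjusted p = 0.00568 by edgeR), a ubiquitin-conjugating enzyme, were higher. HUL4, a ubiquitin ligase (-0.69, adjusted p = 0.02 by edgeR), and DOA4, which recycles ubiquitin (-0.64, adjusted p = 0.00298 by edgeR), were lower. The median of the list was -0.10, against -0.01 for all genes tested. Leaving out 1 library at a time put each of SPG5, RPL40A, UBC4, HUL4 and DOA4 past a limit in some fits and not in others, with HUL4 between -0.83 and -0.56.

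In Ino80_K929R no gene of these lists changed. The assembly factors ran from IRC25 (-0.48) to HSM3 (0.15), the associated proteins from FUB1 (-0.88) to HUL5 (0.28), the regulators of RPN4 from RAD6 (-0.21) to HSF1 (0.34) and the ubiquitin genes from RPS31 (-0.76) to UBX2 (0.50). RPS31 had 2592, 2626 and 2555 CPM in the Ino80_K929R libraries, against 7171, 2928 and 3108 CPM in the WT_Ino80 libraries, so its low value went with WT_Ino80 replicate 1. Without that library RPS31 was at -0.22, FUB1 at -0.67, IRC25 at -0.31, HSM3 at 0.36, HSF1 at 0.20 and UBX2 at 0.28, and none was called.

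In WT_Ino80 over WT_H2AZ, TMA17 and UMP1, chaperones of proteasome assembly, were lower (-1.57 and -0.62), as were SPG5 (-0.82) and 7 ubiquitin genes led by UBI4, the stress-induced polyubiquitin gene (-1.57), and DOA4 (-1.09). The others of these were UBC5 (-0.97), UBX2 (-0.85), RSP5 (-0.80), HRD1 (-0.74) and SAN1 (-0.68). NOB1 (1.06), IRC25 (0.68) and RPS31 (0.89) were higher. These were 3 of 9 assembly factors (33.3%), 2 of 12 associated proteins (16.7%) and 8 of 29 ubiquitin genes (27.6%), beside 32.7% of all genes. UBI4 had 319, 145 and 213 CPM in the WT_Ino80 libraries, against 777, 607 and 629 CPM in the WT_H2AZ libraries, and every WT_Ino80 library was lower. The adjusted p of these 13 genes was at most 0.0319 by edgeR. Without WT_Ino80 replicate 1 RPS31 was at 0.34, IRC25 at 0.50 and SAN1 at -0.43, all short of a limit. UMP1 ranged from -0.92 to -0.46 with 1 library left out and missed a limit in 4 of 12 such fits, among them that without WT_Ino80 replicate 3 (-0.46, adjusted p = 0.0726 by edgeR). RPS31 and SAN1 also missed a limit in 4 of the 12 fits, and UBC5 and IRC25 in 1.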

How the data were processed

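The authors deposited 2 tables of raw counts of fragments per gene, 1 for each mutant with its wild type. The aligner was Bowtie 0.12.2 and the build sacCer3, per the submitters' processing notes. Per the file headers, fragments were counted over exons with featureCounts 2.0.1, without strand and without fragments that map to several places or overlap several genes. Gene names came from the R64 reference table, which matched 6047 of 7127 IDs, and all 34 members had ATG at the start given in the files.

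Each mutant was tested in its own table by edgeR's quasi-likelihood test (edgeR 4.0.16, R 4.3.3), after TMM scaling and a filterByExpr filter at 10 counts, with Benjamini-Hochberg adjustment over all genes tested. The contrast of the mutant effects and that of the wild types came from 1 fit of the 12 libraries, as did the TMM factors behind the printed CPM. A call needed an adjusted p under 0.05 and a fold over 1.5. The fit of each mutant against its wild type was also tested on simulated data with known changes. The outcome is not given here, and no conclusion is drawn from it. The alternatives were DESeq2 1.42.0, other scalings, no filter, no fold limit, a replicate block, 1 fit of all libraries, each library left out, and a gene length offset (loess span 0.5) added after seeing the data. Totals of 17253140 to 20164258 fragments limit the precision of each level, and counting error is smaller than the spread between libraries.

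Named genes are RPN4, members called in any comparison, and the highest and lowest fold change of each particle in each mutant. Also named are the highest and lowest level per length of each particle, and the called or extreme genes of the other lists. RPN9, PRE1, PRE3 and PRE7 are exceptions marked as named after their values were seen. Other exceptions carry no mark, among them SCL1 (named for its level), PRE6 (adjusted p) and RPT1 (unadjusted p). The members and lists were chosen with earlier results of these data known. Promoter windows were read from the R64 genome as 500 bases before each start codon, in place of the promoter table first planned, which was not used here.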

Additional observations from a re-analysis of the deposited data

Results flagged for a closer look

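FUB1, which encodes a relative of the proteasome inhibitor PI31 and binds the core particle, differed between the mutant effects. It was the 1 called of 12 associated proteins, beside 4.25% of all genes tested. For this difference 0 of 9 assembly factors, 0 of 7 regulators of RPN4 and 0 of 29 ubiquitin genes were called. The smallest adjusted p of the ubiquitin genes was 0.0504 by edgeR, and their calls depended on 1 library. Without WT_Ino80 replicate 1, RPS31 (0.89, adjusted p = 0.0234 by edgeR) passed both limits. So did DOA4 (-0.85, adjusted p = 0.025 by edgeR) and UBP14 (-0.67, adjusted p = 0.0486 by edgeR). FUB1 was not called in either mutant alone. It had 25.3, 35.2 and 35.3 CPM in the H2AZ_4KR libraries against 24.3, 24.3 and 28.3 CPM in the WT_H2AZ libraries. It had 17.4, 16.2 and 16.7 CPM in the Ino80_K929R libraries against 39.3, 27.1 and 26.3 CPM in the WT_Ino80 libraries. The groups overlapped for H2AZ_4KR, and all 3 Ino80_K929R libraries were below all 3 WT_Ino80 libraries. In that comparison the groups did not overlap for 15.9% of all genes tested. The difference between the effects, that of H2AZ_4KR minus that of Ino80_K929R, was 1.19 on the log2 scale (SE 0.263, adjusted p = 0.0337 by edgeR). Leaving out 1 library at a time gave 0.98 to 1.34, with the lowest value when WT_Ino80 replicate 1 was left out, and 7 of these 12 fits missed the threshold.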

How the results depend on the processing

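No result turned its call to the other direction under any alternative run. The call of RPN4 in H2AZ_4KR was lost with the gene length offset (-0.58, adjusted p = 0.00461 by edgeR, leaving 0 members called) and ranged from -0.74 to -0.54 with 1 library left out (0 to 1 members). In the wild types the offset gave -0.56 (adjusted p = 0.0122 by edgeR) and left 1 member called, PUP2, and leaving out 1 library gave -0.73 to -0.52 and 2 to 6 members. The difference of RPN4 between the mutants passed with DESeq2 (-0.79, adjusted p = 0.0215 by DESeq2, 1 member) and with total counts (-0.96, adjusted p = 0.0327 by edgeR, 1 member), and ranged from -0.96 to -0.64 with 1 library left out (0 to 1 members). Total counts gave medians in H2AZ_4KR of 0.022 for the core and -0.072 for the regulatory particle, and a regulatory difference of -0.19 between the mutants. Leaving out 1 library gave core medians of 0.055 to 0.221 in H2AZ_4KR, -0.351 to -0.001 in Ino80_K929R, 0.14 to 0.50 for the difference and 0.043 to 0.45 for the wild types. Genes called in H2AZ_4KR numbered 346 in 1 fit of all libraries and 1400 without the fold limit, against 739. Those in Ino80_K929R numbered 9 with DESeq2 and 2 in 1 fit of all libraries, against 1. Those for the difference numbered 729 with DESeq2, and 26 to 594 with 1 library left out, against 265. The cause of these shifts was not tested.

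The replicate numbers are shared between groups. Deviations of same-numbered libraries of a mutant and its wild type had correlations of 0.205, 0.25 and -0.112 for H2AZ_4KR. For Ino80_K929R they were 0.482, -0.547 and -0.162. Deviations from a mean of 3 libraries depend on one another, so these values cannot decide whether the samples were paired. The main fits had no replicate block. With a replicate block, 32 genes were called for the difference, RPN4 in H2AZ_4KR was -0.66 (adjusted p = 0.00146 by edgeR), FUB1 missed the threshold (adjusted p = 0.0777 by edgeR) and the members called were RPN4 in H2AZ_4KR and 3 in the wild types.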
